A study of Mus musculus with 30 samples.

Results

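Luminal and basal epithelial cells of the mammary gland were compared, gene by gene, in virgin K8iΔRank mice. The comparison used 7 of the 30 libraries of the series, chosen by their labels as virgin, knockout and luminal or basal. Luminal cells came from 3 mice (821, 822 and 825) and basal cells from 4 mice (820, 821, 822 and 825), so that 3 mice gave both lineages. The genotype of these females was K8rta:TETO CRE:RANK fl/fl:mTmG, on a mixed background. In this line the keratin 8 promoter drives a doxycycline-dependent activator, Cre is made only in the presence of the drug, and the floxed alleles of Rank (gene Tnfrsf11a) are then deleted, while the mTmG reporter turns from red to green. All animals, controls included, were given doxycycline in their drinking water at 1 mg/ml between 3 and 8 weeks of age per the labels. Virgin controls (K8imTmG) carried K8rta:TETO CRE:mTmG without the floxed allele and gave 3 luminal and 3 basal libraries. Because keratin 8 is a luminal gene, Rank was targeted in luminal cells and the basal cells of the same glands kept it by design. The cells were sorted by CD24 and CD49f after exclusion of leukocytes (CD45) and endothelium (CD31), and the luminal cells were also selected for the green reporter. Each library holds the sorted cells of 1 mouse, so that a lower value can mean fewer cells of a type or less RNA per cell, which cannot be told apart.

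The mammary duct is a bilayer. Luminal cells line the lumen, hold tight junctions and comprise hormone-sensing cells, which carry the estrogen and progesterone receptors, and progenitors that give rise to the milk-producing alveolar cells. Basal cells lie beneath them on the basement membrane that they help to build, and as myoepithelium they contract in response to oxytocin to eject milk. Rank is a receptor of the tumour necrosis factor family. Its ligand Rankl (gene Tnfsf11) is made by hormone-sensing luminal cells after progesterone and acts on neighbouring cells through NF-kB.

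The 7 libraries held 814455 to 2104379 reads counted on genes, after removal of duplicates by molecular identifier, and 1 read was worth 0.620 to 1.92 normalized counts. Luminal libraries were shallower (814455 to 1158036 reads) than basal ones (1200781 to 2104379). Controls were the reverse, with 1862812 to 2422876 luminal and 340445 to 1172427 basal reads. In control basal libraries 1 read was worth 1.44 to 5.43 normalized counts. Depth and lineage therefore cannot be told apart, nor depth and genotype in the contrast below. The virgin libraries of the series also fall on 2 sides of a pattern that is not lineage. Clec2d (chr6:129157577-129163497), a gene of the lectin family, held 65.6, 146 and 85.9 normalized counts in the luminal libraries and 3.46, 8.68, 2.03 and 2.15 in the basal libraries of K8iΔRank mice, against 0.641, 1.05 and 2.21 in luminal and 165, 149 and 152 in basal libraries of K8imTmG mice. Reads on ribosomal protein genes made up 13.9 to 18.3% of the luminal and 9.85 to 13.4% of the basal libraries, and 9.96 to 11.1% and 18.6 to 23.9% of the control luminal and basal libraries. All luminal K8iΔRank libraries therefore lay above 30 normalized counts of Clec2d and all basal ones below, the reverse of the controls. Within these 7 libraries the side and the lineage cannot be told apart. A fit of all 30 libraries with the side as a term was therefore run as an alternative and is named wherever it ended a call. In that fit the side effect comes only from the parous groups that hold both sides. These are basal K8iΔRank (2 of 4 libraries above 30) and luminal K8imTmG (2 of 5). The effect is carried over to the virgin libraries, so a lost call does not tell side from lineage there. Some calls were lost although the difference kept its size. Parous K8iΔRank glands also gave 4 luminal and 2 basal libraries that share the low side, and their lineage difference is given at the end.

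The labels were first checked against lineage markers. Krt8 (keratin 8, chr15:101905133-101912917) held 1933, 1704 and 1723 normalized counts in the luminal libraries and 455, 259.8, 253 and 621 in the basal libraries. Its partner Krt18 (chr15:101936615-101940462) held 1257, 1321 and 2152 in luminal and 421, 97.4, 111 and 394 in basal cells. Both luminal keratins were higher in every luminal than in every basal library, with log2 differences (luminal minus basal, on normalized count plus 1, ± SE) of 2.27 ± 0.32, adjusted p = 4.56e-04, and 2.88 ± 0.53, adjusted p = 0.00210, by limma with Benjamini-Hochberg adjustment. Krt5 (chr15:101615505-101621346) held 17.7, 9.61 and 7.93 in luminal and 845, 936, 1149 and 1463 in basal cells, and Krt14 (chr11:100093988-100098490) held 45.4, 11.5 and 29.1 in luminal and 3069, 1367, 1492 and 3204 in basal cells. Acta2 (smooth muscle actin, chr19:34217737-34232990), the marker of myoepithelial contraction, held 109.8, 28.8 and 64.7 normalized counts in the luminal libraries and 2664, 4025, 4158 and 3889.9 in the basal libraries. The 3 basal markers differed the other way with no overlap (Krt5 -6.47 ± 0.30, adjusted p = 1.15e-06; Krt14 -6.35 ± 0.46, adjusted p = 1.03e-05; Acta2 -5.92 ± 0.39, adjusted p = 6.29e-06). Each library thus carried the markers of its label, and the values of each group are listed throughout in the order of the mice given above.

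**Figure D1:**
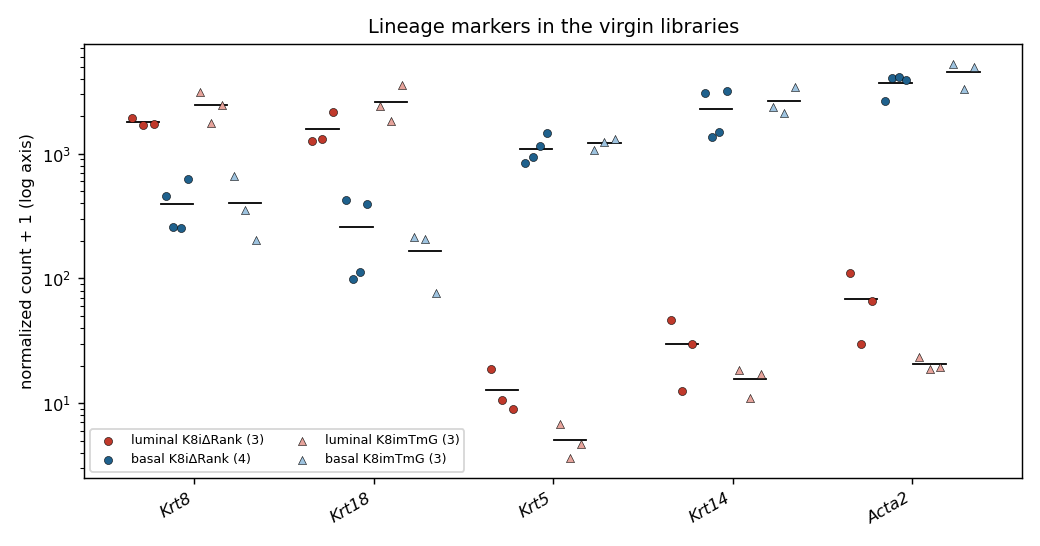
Normalized count plus 1 (log axis) of 5 lineage markers in each virgin library, with K8iΔRank as circles and K8imTmG as triangles, luminal in red and basal in blue, and black bars for the group means. Krt8 and Krt18 lie higher in luminal libraries and Krt5, Krt14 and Acta2 higher in basal libraries of both genotypes, without overlap.

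Rank, the targeted gene, was measured in both lineages. Tnfrsf11a (chr1:105708358-105777170) held 18.9, 11.5 and 23.8 normalized counts in the luminal libraries and 45.0, 78.1, 69.8 and 68.7 in the basal libraries. Every luminal library lay below every basal one (-1.83 ± 0.32, adjusted p = 0.00170). The libraries are 3′ tags, which cannot show the loss of a floxed exon, so these reads do not check the deletion. In K8imTmG mice, with intact Rank, the values were 18.6, 14.2 and 9.57 in luminal and 66.1, 33.1 and 54.3 in basal libraries (-1.78 ± 0.42, adjusted p = 0.0104), and the difference of the lineage differences was -0.048 ± 0.52, adjusted p = 0.958. The call in K8iΔRank was lost with the Clec2d side as a term (-0.86, adjusted p = 0.1903), whereas in the parous libraries of the low side the difference was -1.14, adjusted p = 0.00440.

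Of 10927 genes tested, 3928 (35.9%) differed between the lineages at an adjusted p below 0.05. Of these, 1839 (16.8% of those tested) were luminal, that is, higher in luminal cells, and 2089 (19.1%) were basal, and the median log2 difference over all genes was 0.012. The luminal and basal libraries did not overlap in 4828 genes (44.2%). These shares are the background for the counts of each gene list below. Within a lineage each library came from a separate mouse, so the p-values measure the spread between mice of a lineage. The basal libraries were not evenly alike. Chi-square per degree of freedom, larger where libraries are less alike, was 2.674 between basal mice 821 and 822 and 5.889 between 820 and 825. For all other basal combinations it was 13.04 to 23.24. Basal mice 821 and 822 also had more reads (2104379 and 1934538) than 820 and 825 (1200781 and 1323739). The cause of this split was not tested. Single genes below that part in the same way are not separate findings. The mice that gave both lineages were not paired in this fit. An exact permutation test of a single gene over 3 against 4 libraries could not go below p = 0.0571, so only the model fitted across all genes was used.

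**Figure D2:**
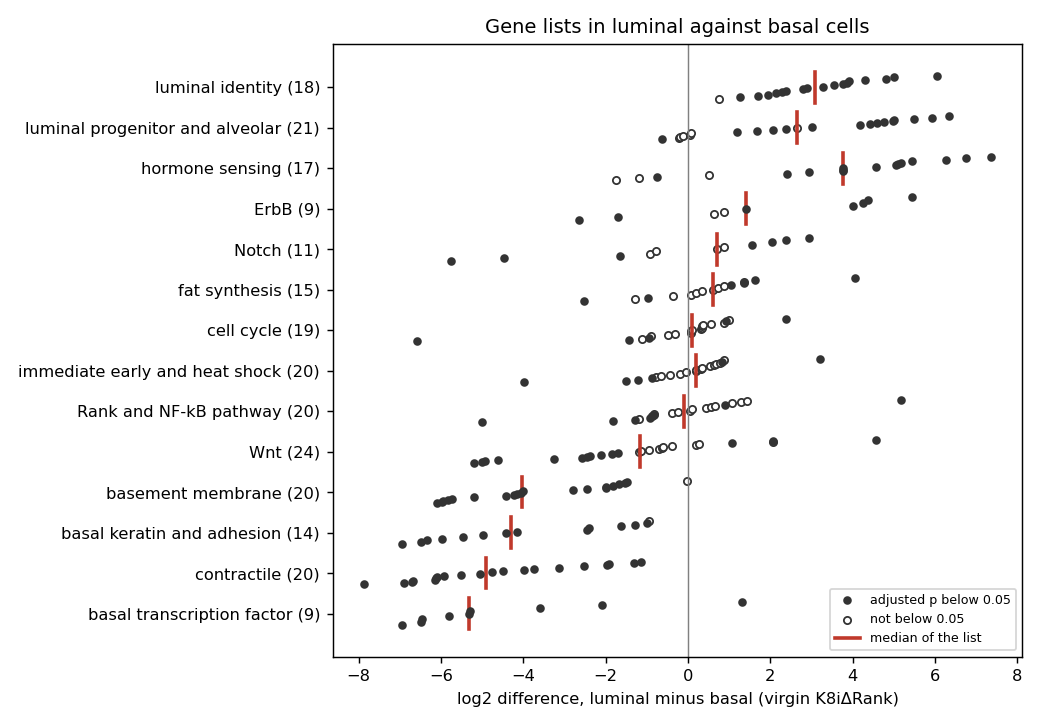
Each point is the log2 difference (luminal minus basal, virgin K8iΔRank) of 1 gene, by gene list with the number tested in parentheses; filled points passed an adjusted p of 0.05, open points did not, and the red bar is the median of the list. Luminal, progenitor and hormone-sensing lists lie to the right with medians of 3.08, 2.64 and 3.77, and the basal, contractile and basement membrane lists to the left with medians from -5.32 to -4.04.

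Genes of luminal identity were higher in luminal cells almost without exception. Of 18 tested, 17 passed the test as luminal and none as basal (background 16.8% luminal and 19.1% basal), with a median log2 difference of 3.08. The claudins seal the tight junctions between luminal cells. Cldn7 held 543, 946 and 589 normalized counts in the luminal libraries and 11.5, 4.96, 9.48 and 12.9 in the basal libraries, Cldn4 568, 663 and 573 in luminal and 41.5, 11.8, 6.10 and 31.1 in basal cells and Cldn3 270.0, 246 and 193 in luminal and 6.92, 5.58, 4.74 and 15.0 in basal cells. In all 3 claudins the lowest luminal value was many times the highest basal one, and their differences were 6.04 ± 0.34, adjusted p = 2.80e-06, then 5.001 ± 0.54, adjusted p = 8.45e-05, and 4.82 ± 0.37, adjusted p = 1.38e-05. Keratin 7 and keratin 19 followed (Krt7 4.30 ± 0.45, adjusted p = 7.52e-05; Krt19 3.90 ± 0.29, adjusted p = 1.23e-05). Epcam, an adhesion molecule of simple epithelia, held 1555, 1544 and 1688 normalized counts in the luminal libraries and 166, 252, 238 and 268 in the basal libraries. Its groups were separate (2.80 ± 0.22, adjusted p = 1.36e-05). E-cadherin (Cdh1), which joins epithelial cells to each other, had 1239, 1932 and 2366 in luminal and 353, 632, 679 and 589 in basal cells. The difference was smaller than that of the claudins (1.70 ± 0.30, adjusted p = 0.00171). The Ets factors Ehf and Elf3 differed by 3.87 and 3.28. The serine protease matriptase (St14) and its inhibitors Spint1 and Spint2 were all higher in luminal cells (St14 1.27 ± 0.19, adjusted p = 6.37e-04; Spint1 2.37 ± 0.28, adjusted p = 1.42e-04; Spint2 1.93 ± 0.41, adjusted p = 0.00495), but Spint2 did not pass with the Clec2d side as a term (1.26, adjusted p = 0.142).

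Gata3, the luminal master regulator, was the member that did not pass. Its 1396, 1304 and 1794 normalized counts in luminal libraries overlapped the 1363, 615, 609 and 1210.4 of basal libraries (0.74 ± 0.33, adjusted p = 0.104). Mouse 820, with the second highest keratin 8 of the basal libraries, had the highest basal Gata3, at 1363. Gata3 passed without basal mouse 820 (adjusted p = 0.0380), and also with mouse as a block, which uses only the mice with both lineages (0.95, adjusted p = 0.0224).

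Outside that list, the genes furthest toward luminal cells had log2 differences near or above 6. Calca, which encodes calcitonin and the peptide CGRP, held 3969.7, 3634 and 377 normalized counts in the luminal libraries and 0, 17.98, 37.2 and 17.2 in the basal libraries. Luminal mouse 825 was far below the other 2 luminal libraries, though above all basal values (7.36 ± 1.20, adjusted p = 0.00107). The water channel Aqp5 held 612, 1334 and 1414 in luminal and 28.9, 1.86, 5.42 and 38.7 in basal cells (6.43 ± 0.82, adjusted p = 2.39e-04). The defensin Defb1 held 519, 981 and 207 in luminal and 1.15, 4.34, 8.80 and 11.8 in basal cells (6.26 ± 0.66, adjusted p = 7.27e-05), and the chemokine Cxcl15 held 497, 463 and 904 in luminal and 5.77, 3.10, 4.74 and 12.9 in basal cells (6.44 ± 0.42, adjusted p = 6.29e-06). Luminal and basal libraries did not overlap in any of them, as the choice of these genes required, and the Cxcl15 call was lost with the Clec2d side as a term (3.43, adjusted p = 0.0707). Ttc6, 9530014B07Rik and the co-chaperone Dnajc12 followed with differences between 5.92 and 6.26.

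Progenitor and alveolar genes were mostly luminal. Of 21 tested, 14 were higher in luminal cells, 1 in basal cells and 6 passed in neither direction, with a median of 2.64. Elf5, the factor that drives the alveolar fate, held 105, 154 and 135 normalized counts in the luminal libraries and 6.92, 2.48, 2.71 and 4.30 in the basal libraries. Kit, the stem cell factor receptor of luminal progenitors, held 246, 115 and 254 in luminal and 5.77, 4.96, 6.77 and 3.22 in basal cells, and the retinal dehydrogenase Aldh1a3 288, 235 and 328 in luminal and 15.0, 11.8, 12.9 and 19.3 in basal cells. These 3 progenitor genes were separate between the lineages by 4.76, 5.01 and 4.18 on the log2 scale (adjusted p = 1.49e-05, 1.17e-05 and 4.39e-06). Cd14, the co-receptor for bacterial lipopolysaccharide, and lactoferrin (Ltf), an iron-binding milk protein, differed by 5.93 ± 0.56, adjusted p = 3.71e-05, and 4.59 ± 0.41, adjusted p = 2.84e-05.

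Milk protein genes were present in these virgin luminal cells at very different levels. Kappa-casein (Csn3), which keeps casein micelles in suspension, held 2509.8, 1398 and 1559 normalized counts in the luminal libraries and 20.8, 22.9, 23.7 and 16.1 in the basal libraries. This was the most separate of the milk genes (6.35 ± 0.26, adjusted p = 8.90e-07). Alpha-lactalbumin (Lalba), the cofactor of lactose synthesis, held 24.0, 46.1 and 75.3 in luminal libraries and no read in any basal library. It was at least 14-fold higher in luminal cells, taking the basal level at 3 reads of the shallowest library (fitted difference 5.49 ± 0.54, adjusted p = 4.71e-05, a size that depends on the added count of 1). Beta-casein (Csn2), at 1.26, 0 and 0, and Csn1s2a, at 5.05, 1.92 and 2.64, were at or near the floor in luminal cells and were not tested. Btn1a1, which coats the milk fat globule, held 143, 258 and 184 in luminal and 9.23, 6.82, 5.42 and 10.7 in basal cells (4.43 ± 0.33, adjusted p = 1.06e-05), and the whey-type inhibitor Wfdc18 1249, 2161 and 897 in luminal and 75.0, 27.3, 20.3 and 70.9 in basal cells (4.98 ± 0.48, adjusted p = 4.49e-05).

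Mfge8, another milk fat globule protein, went the other way. It held 1287, 1652 and 1353 normalized counts in the luminal libraries and 2298, 2472, 2236 and 1875 in the basal libraries, all luminal values below all basal ones (-0.64 ± 0.21, adjusted p = 0.0425). The call was lost without luminal mouse 821, luminal mouse 825, basal mouse 820, basal mouse 821, basal mouse 822 or basal mouse 825 (adjusted p from 0.0516 to 0.128), with mouse as a block (adjusted p = 0.112) and with the side as a term (-0.25, adjusted p = 0.665). In K8imTmG mice Mfge8 was higher in luminal cells, with 2562, 2127 and 3071 against 878, 707 and 603 (1.83 ± 0.24, adjusted p = 5.77e-04). The homeobox factor Irx1, at 430.3, 552 and 353 normalized counts in the luminal libraries and 434, 413, 477 and 586 in the basal libraries, overlapped between the lineages (-0.11 ± 0.22, adjusted p = 0.722), while control basal cells held 652, 661 and 1228 against 168, 241.18 and 192 in control luminal cells (-2.02 ± 0.29, adjusted p = 8.82e-04). Without luminal mouse 825 the Irx1 difference was 0.042, and with the side as a term Irx1 was basal in K8iΔRank as well (-1.27, adjusted p = 0.00268).

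Of 17 hormone-sensing genes tested, 13 were higher in luminal cells and 1 in basal cells, with a median log2 difference of 3.77. The prolactin receptor Prlr held 3377, 3225 and 6308 normalized counts in the luminal libraries and 204, 72.6, 56.9 and 237 in the basal libraries. Estrogen receptor alpha (Esr1) held 196, 206 and 292 in luminal and 12.7, 16.7, 21.0 and 13.96 in basal cells, and the progesterone receptor (Pgr) 323, 249.97 and 812 in luminal and 51.9, 54.0, 41.3 and 61.2 in basal cells. All 3 receptors were separate, by 5.09 ± 0.50, adjusted p = 4.94e-05, then 3.76 ± 0.27, adjusted p = 9.97e-06, and 2.94 ± 0.37, adjusted p = 2.19e-04. Foxa1, the pioneer factor that opens chromatin for the estrogen receptor, held 975, 481 and 783 normalized counts in the luminal libraries and 2.31, 7.44, 5.42 and 9.67 in the basal libraries. No basal library reached 10 normalized counts of it (6.76 ± 0.42, adjusted p = 4.39e-06). Its control basal libraries held 48.8, 33.1 and 10.9, from 34, 8 and 2 reads. Cited1, a coactivator of the estrogen receptor, held 608, 577 and 614 in luminal and 3.46, 4.96, 7.45 and 16.1 in basal cells (6.25 ± 0.41, adjusted p = 6.29e-06). The secreted factors of these cells followed: Wnt4 4.57 ± 0.33, adjusted p = 9.92e-06, and stanniocalcin Stc2 5.06 ± 0.46, adjusted p = 3.02e-05.

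Tbx3, a T-box factor of hormone-sensing cells, overlapped at 179, 196 and 287 normalized counts in the luminal libraries and 178, 123, 124 and 189 in the basal libraries (0.52 ± 0.25, adjusted p = 0.137). Without luminal mouse 825 its difference was 0.31.

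Epidermal growth factor ligands and receptors were divided between the lineages. Of 9 ErbB genes tested, 5 were higher in luminal and 2 in basal cells, with a median of 1.41. Amphiregulin (Areg), which estrogen induces and which acts through Egfr, held 1729, 1290.2 and 1577 normalized counts in the luminal libraries and 40.4, 21.7, 30.5 and 50.5 in the basal libraries. Its receptor Egfr held 41.6, 40.4 and 27.7 normalized counts in the luminal libraries and 70.4, 167, 161 and 109.5 in the basal libraries. Ligand and receptor were thus separate in opposite directions (Areg 5.44 ± 0.29, adjusted p = 1.92e-06; Egfr -1.71 ± 0.33, adjusted p = 0.00289), and the Egfr call was lost with the Clec2d side as a term (-1.32, adjusted p = 0.163). Betacellulin (Btc) 4.24 ± 0.42, adjusted p = 4.99e-05, and Tgfa 1.41 ± 0.35, adjusted p = 0.0111, were further luminal ligands of Egfr, Tgfa losing its call without luminal mouse 821 (adjusted p = 0.0505) and with the side as a term (1.28, adjusted p = 0.162).

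For neuregulin and its receptors the order was the reverse. Neuregulin 1 (Nrg1) held 2.52, 1.92 and 2.64 normalized counts in the luminal libraries and 12.7, 37.8, 25.1 and 12.9 in the basal libraries, and its receptor Erbb3 119.9, 167 and 177 in luminal and 6.92, 2.48, 6.77 and 12.9 in basal cells. Here the ligand was basal and the receptor luminal (Nrg1 -2.65 ± 0.48, adjusted p = 0.00201; Erbb3 4.38 ± 0.44, adjusted p = 5.62e-05). Erbb4, a second neuregulin receptor that signals through Stat5 in lactation, held 13.9, 23.1 and 29.1 in luminal cells and a total of 2 reads in the basal libraries, a ratio of 53.1 (95% counting interval 13.9 to 452) and a log2 difference of 4.002 ± 0.56, adjusted p = 4.49e-04. Erbb2, which has no ligand and pairs with the others, did not overlap but did not pass (0.87 ± 0.32, adjusted p = 0.0595). It passed without basal mouse 820 (adjusted p = 0.0349), and with mouse as a block (adjusted p = 0.0431).

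Smooth muscle myosin (Myh11), furthest toward basal cells of all genes named by size, held 7.57, 0 and 9.25 normalized counts in the luminal libraries and 1355, 843, 794 and 1266 in the basal libraries. Podoplanin (Pdpn), a membrane glycoprotein, held 11.4, 0 and 2.64 in luminal and 679, 702, 660.3 and 667 in basal cells, and the actin-binding nexilin (Nexn) 8.83, 1.92 and 3.96 in luminal and 669, 785, 652 and 695 in basal cells. Each was below 12 normalized counts in every luminal library and above 600 in every basal one, with differences of -7.87 ± 0.69, adjusted p = 2.56e-05, then -7.57 ± 0.65, adjusted p = 2.37e-05, and -7.07 ± 0.36, adjusted p = 1.70e-06. The synaptic adhesion protein Tenm2 -7.19 ± 0.46, adjusted p = 5.38e-06, the fibulin Fbln7 -7.16 ± 0.58, adjusted p = 1.65e-05, and the sodium channel Scn7a -6.98 ± 0.76, adjusted p = 8.58e-05, were of the same order. The adhesion protein Pcdh7 had no read in a luminal library and 106, 99.2, 104 and 142 in basal libraries, at least 19.6-fold higher. Lmo1, a transcriptional cofactor, had a total of 2 luminal reads against 238, 159, 186 and 217 normalized counts, a ratio of 199 (55.0 to 1646). Intervals and floors cover counting error only.

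Of 14 basal keratin and adhesion genes tested, 13 were higher in basal cells and none in luminal cells, with a median of -4.29. Krt17 held 15.1, 3.85 and 5.28 normalized counts in the luminal libraries and 1207, 787, 919.7 and 1043 in the basal libraries. It was a basal keratin with nearly no luminal reads (-6.95 ± 0.38, adjusted p = 2.37e-06). Collagen XVII (Col17a1) and integrin beta 4 (Itgb4), both of the hemidesmosome that anchors basal cells, differed by -5.97 ± 0.52, adjusted p = 2.49e-05, and -2.40 ± 0.36, adjusted p = 6.58e-04. Integrin alpha 6 (Itga6), which encodes the CD49f antigen used for the sort, held 442, 336 and 474 normalized counts in the luminal libraries and 1223, 1369.9, 1272 and 1217 in the basal libraries. The groups were separate (-1.62 ± 0.20, adjusted p = 1.95e-04), but a gene used to sort the cells is no finding between them. Integrin alpha 3 (Itga3), at 149, 371 and 72.7 normalized counts in the luminal libraries and 426, 216, 242 and 396 in the basal libraries, did not pass (-0.94 ± 0.48, adjusted p = 0.155), luminal mouse 822 lying within the basal range. It passed without luminal mouse 822 (adjusted p = 0.0181), at -1.55, and without luminal mouse 825 it was -0.38.

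Of 9 basal transcription factors tested, 8 were higher in basal cells and 1 in luminal cells, with a median of -5.32 (-5.30 with Bcl11b at its bound). p63 (Trp63), without which stratified and basal epithelia do not form, held 2.52, 1.92 and 2.64 normalized counts in the luminal libraries and 64.6, 225, 198 and 108 in the basal libraries. Slug (Snai2) held 5.05, 1.92 and 3.96 in luminal and 102, 217, 251 and 164 in basal cells. Bcl11b, which keeps mammary stem cells quiescent, had no luminal read and 81.9, 164, 158 and 103 in basal cells, at least 22.0-fold higher. All 3 were separate, at -5.32 ± 0.43, adjusted p = 1.76e-05, then -5.30 ± 0.38, adjusted p = 1.03e-05, and -6.94 ± 0.37, adjusted p = 1.93e-06. Basal mouse 820 had the lowest value of each. Id4, an inhibitor of basic helix-loop-helix factors, held 21.5, 9.61 and 14.5 in luminal and 757, 1369, 961 and 549 in basal cells (-5.80 ± 0.35, adjusted p = 4.07e-06), and Mef2c, a muscle transcription factor, 1.26, 1.92 and 3.96 in luminal and 437, 231, 212 and 292 in basal cells (-6.46 ± 0.36, adjusted p = 2.56e-06). Tead1, the partner of Yap, and Tcf7l1, a repressor of Wnt targets, differed by -2.09 ± 0.23, adjusted p = 8.61e-05, and -3.59 ± 0.23, adjusted p = 6.03e-06.

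Meis1, a homeobox factor, was the luminal member of the list. It held 31.5, 53.8 and 37.0 normalized counts in the luminal libraries and 24.2, 14.3, 15.6 and 10.7 in the basal libraries, with basal mouse 820 closest to the luminal values (1.30 ± 0.35, adjusted p = 0.0166). Its call was lost without luminal mouse 822 (adjusted p = 0.0669), and with the Clec2d side as a term (0.57, adjusted p = 0.570).

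Every contractile gene tested was higher in basal cells, 20 of 20 against a background of 19.1%, with a median of -4.91. Calponin (Cnn1) held 12.6, 3.85 and 17.2 normalized counts in the luminal libraries and 1143, 480.0, 501 and 1085 in the basal libraries. Transgelin (Tagln) held 6.31, 1.92 and 2.64 in luminal and 437, 433, 465 and 442 in basal cells, and tropomyosin 2 (Tpm2) 12.6, 5.77 and 9.25 in luminal and 1461, 945, 979 and 1381 in basal cells. The basal libraries were within a factor of 3 of each other in all 3 genes, and the luminal ones far below (-6.12 ± 0.48, adjusted p = 1.49e-05; -6.71 ± 0.31, adjusted p = 1.15e-06; -6.90 ± 0.28, adjusted p = 8.90e-07). Myosin light chain kinase (Mylk), which switches the contraction on, and the oxytocin receptor (Oxtr), which receives the signal for milk ejection, differed by -6.13 ± 0.40, adjusted p = 6.29e-06, and -4.76 ± 0.34, adjusted p = 9.45e-06. Oxtr held 25.2, 19.2 and 18.5 normalized counts in the luminal libraries and 899, 351, 467 and 827 in the basal libraries, highest in basal mice 820 and 825. At the other end, tropomyosin 1 (Tpm1) -1.92 ± 0.19, adjusted p = 4.82e-05, vinculin (Vcl) -1.30 ± 0.28, adjusted p = 0.00498, and alpha-actinin 1 (Actn1) -1.15 ± 0.23, adjusted p = 0.00378, are part of the cytoskeleton of all cells, and luminal libraries held 492, 492 and 532 of Tpm1.

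Serum response factor is known to bind the CArG box in promoters of contractile genes, so the window from 250 bases before to 50 after the start of each gene's canonical transcript was searched for it on both strands (GRCm39, Gencode vM39; a search chosen after the values were seen). The box stood in 148 of 10697 promoters of all genes tested (1.38%). It stood in 2 of 24 promoters of the Wnt list and 1 of 17 of the hormone-sensing list. Among contractile promoters it stood in 2 of 20. Both windows, with the matched letters in capitals, are shown 5′ to 3′ on the strand of the gene, being the contractile promoters that hold the box. The Tagln stretch is chr9:45847449-45847478 on the minus strand, and its box begins 64 bases before the start of the canonical transcript. The Vcl stretch is chr14:20979229-20979258 on the plus strand, and its box begins 227 bases before that start.
Tagln: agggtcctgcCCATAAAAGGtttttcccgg
Vcl: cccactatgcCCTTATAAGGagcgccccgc
A match is a description of letters and was not tested as a site. Tagln differed by -6.71 and Vcl by -1.30 on the log2 scale.

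The basement membrane list was basal in 19 of 20 genes tested, none being luminal, with a median of -4.04. Type IV collagen, its network-forming component, was represented by Col4a1 at 29.0, 23.1 and 11.9 normalized counts in the luminal libraries and 624, 997, 978 and 567 in the basal libraries and Col4a2 at 10.1, 3.85 and 2.64 in luminal and 319, 406, 495 and 376 in basal cells. Col4a1 and Col4a2 were separate (-5.19 ± 0.33, adjusted p = 5.38e-06, and -6.09 ± 0.37, adjusted p = 4.27e-06), with basal mice 821 and 822 highest. Laminin alpha 1 (Lama1) had a total of 1 read in luminal cells and 66.9, 72.6, 56.9 and 81.6 normalized counts in basal cells, a ratio of 142 (25.3 to 5620.0). The laminin chains Lama3 and Lamb3, which bind the hemidesmosome, differed by -4.16 ± 0.27, adjusted p = 5.38e-06, and -4.42 ± 0.34, adjusted p = 1.29e-05. Sparc, a matrix protein that binds collagen, held 105, 106 and 46.2 normalized counts in the luminal libraries and 5833, 3429, 3859 and 5662 in the basal libraries (-5.82 ± 0.33, adjusted p = 3.19e-06). Laminin alpha 5 (Lama5) was the member that did not pass, at 93.4, 73.1 and 104 normalized counts in the luminal libraries and 91.2, 101, 105 and 69.8 in the basal libraries (-0.022 ± 0.24, adjusted p = 0.952). The small Lama5 difference changed sign without luminal mouse 822 (0.12), basal mouse 821 (0.030) or basal mouse 822 (0.048), and with quantile normalization (0.019).

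Among the partners of Rank, the ligand was luminal and the decoy receptor basal. Rankl (Tnfsf11) held 148, 55.8 and 10.6 normalized counts in the luminal libraries and 0, 0.620, 0.677 and 0 in the basal libraries. The luminal values spread more than 10-fold between mice, mouse 825 being lowest, and the basal libraries had a total of 2 reads, a ratio of 182 (49.5 to 1515; 5.16 ± 0.79, adjusted p = 7.40e-04). Osteoprotegerin (Tnfrsf11b), which captures Rankl, had no luminal read and 11.5, 81.9, 50.1 and 19.3 in basal libraries, highest in mice 821 and 822. It was at least 7.06-fold higher in basal cells (fitted -5.01 ± 0.66, adjusted p = 2.92e-04). Control luminal cells held 17.3, 30.9 and 0 of Tnfsf11, and its control difference did not pass (2.63 ± 1.24, adjusted p = 0.127).

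The pathway as a whole leaned to neither lineage. Of 20 Rank and NF-kB genes tested, 2 were higher in luminal and 5 in basal cells (background 16.8% and 19.1%), and the median was -0.095. The inhibitor Nfkbia, an early NF-kB target, held 2810.1, 3017 and 3880.0 normalized counts in the luminal libraries and 1425, 1684, 1949 and 1813 in the basal libraries. It was luminal (0.91 ± 0.23, adjusted p = 0.0118), but not in a fit after quantile normalization (0.52, adjusted p = 0.111) or with the Clec2d side as a term (0.48, adjusted p = 0.329). The subunits Rela, at 70.7, 51.9 and 67.4 in luminal and 143, 94.9, 96.8 and 120.3 in basal cells, and Nfkb2, at 32.8, 44.2 and 52.8 in luminal and 69.2, 79.4, 96.2 and 82.7 in basal cells, were basal without overlap (-0.83 ± 0.24, adjusted p = 0.0212, and -0.92 ± 0.25, adjusted p = 0.0160). The Rela call was lost without luminal mouse 822 (adjusted p = 0.0694) or basal mouse 825 (adjusted p = 0.0585), and with mouse as a block (adjusted p = 0.0744). That of Nfkb2 was lost without luminal mouse 821 (adjusted p = 0.0628). In K8imTmG mice both subunits were higher in luminal cells (Rela 1.38 ± 0.37, adjusted p = 0.0176; Nfkb2 0.93 ± 0.30, adjusted p = 0.0396), and with the side as a term neither passed (Rela 0.039, adjusted p = 0.960; Nfkb2 0.21, adjusted p = 0.723). Another basal member, the inhibitor Nfkbie (-1.28 ± 0.37, adjusted p = 0.0233), lost its call without luminal mouse 821, basal mouse 821 or basal mouse 822 (adjusted p from 0.0576 to 0.0810), and with the side as a term (0.38, adjusted p = 0.814).

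**Figure D3:**
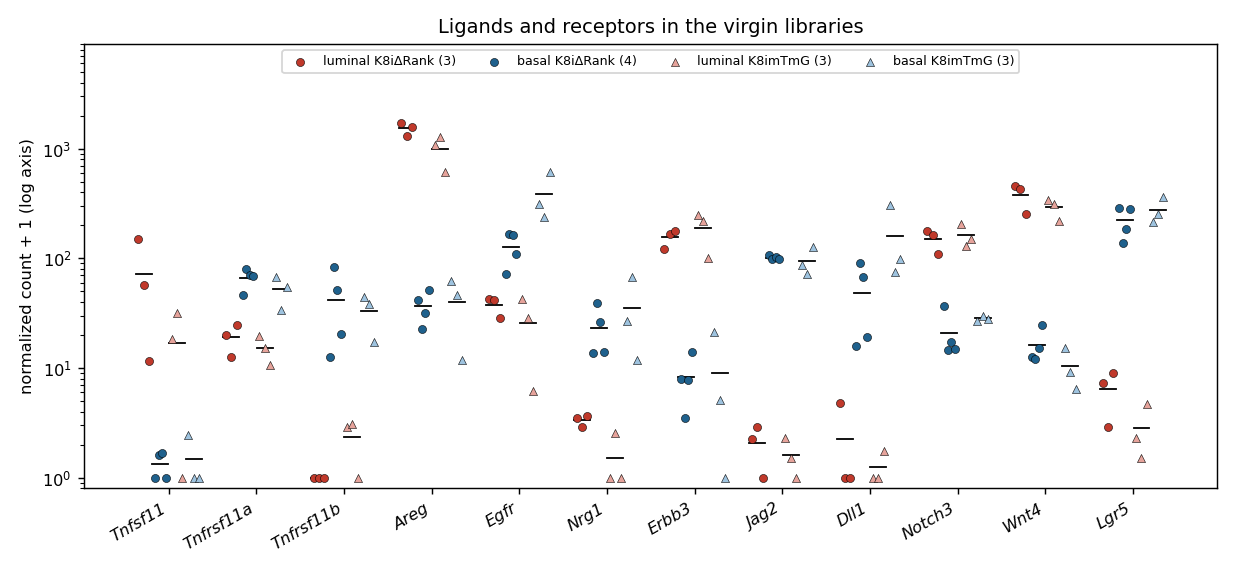
Normalized count plus 1 (log axis) of ligands and receptors in each virgin library, K8iΔRank as circles and K8imTmG as triangles, luminal in red and basal in blue, with bars for the group means. Tnfsf11, Areg, Erbb3, Notch3 and Wnt4 lie higher in luminal libraries and Tnfrsf11a, Tnfrsf11b, Egfr, Nrg1, Jag2, Dll1 and Lgr5 higher in basal libraries of K8iΔRank mice.

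Notch signals between touching cells, from a ligand on one to a receptor on the next, and the ligands Jag2 and Dll1 were basal, the receptor Notch3 and its target Hey1 luminal. Of 11 genes tested, 4 were luminal, 3 basal and 4 neither, with a median of 0.71. Jagged 2 (Jag2) had a total of 2 luminal reads and 106, 96.7, 102 and 97.7 normalized counts in basal cells, a ratio of 104 (28.6 to 859). Delta-like 1 (Dll1) had 3 luminal reads, all from 1 library, and 15.0, 89.9, 66.4 and 18.3 in basal cells, a ratio of 38.5 (13.1 to 188), with mice 821 and 822 highest. Jag1 overlapped between the lineages and did not pass (-0.77 ± 0.35, adjusted p = 0.108), except with array quality weights (adjusted p = 0.00781). The receptor Notch3, a mark of luminal progenitors, held 175, 163 and 109.6 normalized counts in the luminal libraries and 35.8, 13.6, 16.3 and 13.96 in the basal libraries (2.93 ± 0.36, adjusted p = 2.08e-04), and the target Hey1 389, 599.9 and 429 in luminal and 132, 73.8, 66.4 and 95.6 in basal cells (2.38 ± 0.28, adjusted p = 1.34e-04). Both were separate, and Nrarp, a feedback inhibitor of Notch, followed (1.56 ± 0.36, adjusted p = 0.00776), though not with the Clec2d side as a term (1.22, adjusted p = 0.273).

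Hes1, a repressor downstream of Notch, held 911, 319 and 828 normalized counts in the luminal libraries and 73.9, 369.6, 249 and 77.3 in the basal libraries. Basal mice 820 and 825 were far below the other 2 basal libraries in Hes1, and luminal mouse 822 lay within the basal range (2.03 ± 0.60, adjusted p = 0.0239). The Hes1 call was lost without luminal mouse 821, luminal mouse 825 or basal mouse 825 (adjusted p from 0.0649 to 0.101), and with the side as a term (0.29, adjusted p = 0.837). Notch1 did not pass, at 109.8, 73.1 and 181 normalized counts in the luminal libraries and 84.2, 60.2, 49.4 and 58.0 in the basal libraries (0.86 ± 0.32, adjusted p = 0.0615), but passed without luminal mouse 822 (adjusted p = 0.0221) or basal mouse 820 (adjusted p = 0.0409), and with mouse as a block (adjusted p = 0.0333), and by edgeR (0.0493) and DESeq2 (0.0348) on the reads. Without luminal mouse 825 its difference was 0.53. Notch4, a mostly endothelial receptor, was basal (-1.65 ± 0.50, adjusted p = 0.0267), a call lost without luminal mouse 821, luminal mouse 822, basal mouse 820 or basal mouse 822 (adjusted p from 0.0616 to 0.0915), and with mouse as a block (adjusted p = 0.0835), quantile normalization (0.0641) or the side as a term (-2.32, adjusted p = 0.101).

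Wnt ligands were found in both lineages. Of 24 genes tested, 3 were luminal, 11 basal and 10 neither, with a median of -1.17. Wnt4, which progesterone induces, held 459, 425 and 252 normalized counts in the luminal libraries and 11.5, 11.2, 14.2 and 23.6 in the basal libraries (4.57 ± 0.33, adjusted p = 9.92e-06). Lgr5, a receptor for R-spondins on basal stem cells, held 6.31, 1.92 and 7.93 normalized counts in the luminal libraries and 286, 136, 183 and 280.3 in the basal libraries. Wnt4 was luminal and Lgr5 basal, neither with overlap (-5.21 ± 0.43, adjusted p = 1.78e-05 for Lgr5). R-spondin 1 (Rspo1), at 6.31, 7.69 and 0 in luminal and 0, 3.72, 4.06 and 4.30 in basal cells, was near the floor and was not tested. The basal ligand Wnt10a had 1 luminal read, a ratio of 82.6 (14.7 to 3278), and Wnt6 differed by -2.58 ± 0.54, adjusted p = 0.00472 (with the side as a term -2.38, adjusted p = 0.116). Fzd7, a receptor of mammary stem cells, held 13.9, 15.4 and 9.25 in luminal and 102, 138, 121 and 158 in basal cells (-3.25 ± 0.27, adjusted p = 1.97e-05). The receptors Lgr6 and Fzd3 were basal as well (-2.38 ± 0.20, adjusted p = 2.21e-05, and -2.12 ± 0.29, adjusted p = 3.61e-04). The secreted antagonists Sfrp1 and Dkk3 were basal too (-4.999 ± 0.53, adjusted p = 7.33e-05, and -4.93 ± 0.40, adjusted p = 1.77e-05), both highest in basal mice 820 and 825.

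Axin2, a readout of canonical Wnt signalling, was low everywhere. It held 3.79, 0 and 0 normalized counts in the luminal libraries and 4.62, 12.4, 12.2 and 6.44 in the basal libraries, with 3 luminal reads in all and a ratio of 6.78 (2.18 to 34.0; -2.46 ± 0.71, adjusted p = 0.0220). The call was lost without luminal mouse 822 (adjusted p = 0.0645) or luminal mouse 825 (adjusted p = 0.0741). The luminal calls of Lrp5 and Wnt5b were fragile too. Lrp5, a coreceptor, held 63.1, 46.1 and 104 normalized counts in the luminal libraries and 3.46, 32.9, 39.3 and 10.7 in the basal libraries (2.06 ± 0.70, adjusted p = 0.0428), with basal mice 820 and 825 lowest. Its call was lost without luminal mouse 821, luminal mouse 822, luminal mouse 825, basal mouse 820 or basal mouse 825 (adjusted p from 0.0508 to 0.155), with mouse as a block (adjusted p = 0.0705), by edgeR on the reads (0.0579), with array quality weights (0.130) and with the side as a term (0.053, adjusted p = 0.973), and in K8imTmG mice Lrp5 was basal (-1.50 ± 0.41, adjusted p = 0.0190). Wnt5b (1.08 ± 0.30, adjusted p = 0.0191) lost its call without luminal mouse 821 (adjusted p = 0.0504) or luminal mouse 825 (adjusted p = 0.0736), and in the fit of all 30 libraries without the side (0.0797).

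Among the D cyclins, which link growth signals to the cell cycle, Ccnd1 and Ccnd2 differed in opposite directions. Ccnd1 held 867, 854 and 1172 normalized counts in the luminal libraries and 75.0, 500.5, 293 and 97.7 in the basal libraries, and Ccnd2 16.4, 5.77 and 7.93 in luminal and 691, 1700.5, 1016 and 752 in basal cells. Ccnd1 was luminal (2.39 ± 0.58, adjusted p = 0.00945) and Ccnd2 basal (-6.58 ± 0.39, adjusted p = 3.90e-06), neither with overlap, while Ccnd3, at 149, 142 and 80.6 in luminal and 148, 159, 146 and 148 in basal cells, overlapped and did not pass (-0.33 ± 0.25, adjusted p = 0.326). The inhibitor Cdkn1b was luminal (0.93 ± 0.26, adjusted p = 0.0196), losing the call without luminal mouse 822 (adjusted p = 0.0746) and with the side as a term (0.22, adjusted p = 0.699). In the cell cycle list as a whole 2 of 19 genes tested were luminal, 3 basal and 14 neither, with a median of 0.097.

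Mki67, the proliferation marker, held 32.8, 48.1 and 3.96 normalized counts in the luminal libraries and 0, 124, 100.2 and 48.3 in the basal libraries. Luminal mouse 825 and basal mouse 820 were low for Mki67, and the groups overlapped (-0.48 ± 1.52, adjusted p = 0.8285). Leaving out libraries moved the difference between -2.08 (without basal mouse 820) and 0.54 (without luminal mouse 825), and with mouse as a block, which leaves out basal mouse 820, it was -2.08 (adjusted p = 0.00788). The replication helicase genes Mcm3 and Mcm7 were basal (Mcm3 -1.43 ± 0.46, adjusted p = 0.0346; Mcm7 -0.94 ± 0.30, adjusted p = 0.0335). Mcm3 lost its call without luminal mouse 822, luminal mouse 825, basal mouse 821 or basal mouse 825 (adjusted p from 0.0676 to 0.127), and by edgeR (0.0528), and Mcm7 without luminal mouse 825, basal mouse 820, basal mouse 821 or basal mouse 825 (adjusted p from 0.0515 to 0.103), and with mouse as a block (adjusted p = 0.0692). Without luminal mouse 825 the Mcm3 difference was -0.92 and that of Mcm7 -0.61. With the side as a term neither passed (Mcm3 0.31, adjusted p = 0.882; Mcm7 0.49, adjusted p = 0.711).

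Of 15 fat synthesis genes tested, 4 were luminal, 2 basal and 9 neither, against a background of 16.8% and 19.1%, with a median of 0.59. Dgat2, which makes triglyceride, held 202, 204 and 106 normalized counts in the luminal libraries and 21.9, 3.72, 3.39 and 19.3 in the basal libraries, and the groups were separate (4.05 ± 0.63, adjusted p = 7.70e-04; with the side as a term 2.62, adjusted p = 0.0568). The desaturase Scd1 1.35 ± 0.29, adjusted p = 0.00508, malic enzyme Me1 1.63 ± 0.27, adjusted p = 0.00120, and ATP citrate lyase Acly 1.05 ± 0.23, adjusted p = 0.00601, were also luminal. Acetyl-CoA carboxylase (Acaca), the committed step of fatty acid synthesis, held 7.57, 17.3 and 10.6 normalized counts in the luminal libraries and 76.2, 79.4, 61.6 and 63.4 in the basal libraries. It was basal (-2.54 ± 0.31, adjusted p = 2.04e-04), like fatty acid synthase (Fasn -0.97 ± 0.26, adjusted p = 0.0156), which missed the threshold with mouse as a block (adjusted p = 0.0535). With the side as a term neither passed (Acaca -0.91, adjusted p = 0.169; Fasn 0.53, adjusted p = 0.381), and in K8imTmG mice Fasn was luminal (1.46 ± 0.26, adjusted p = 0.00277).

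Immediate early and heat shock genes, which respond to handling as well as to signals, gave 2 luminal and 4 basal calls among 20 tested, with a median of 0.19. Ier3 held 964, 869 and 1102 normalized counts in the luminal libraries and 3945, 2164, 2085 and 3366 in the basal libraries (-1.51 ± 0.28, adjusted p = 0.00214), and Ccn2, a Yap target, 11.4, 1.92 and 2.64 in luminal and 28.9, 201, 237 and 27.9 in basal cells (-3.98 ± 0.85, adjusted p = 0.00489). Both were basal without overlap, and Ccn2 was far lower in basal mice 820 and 825 than in 821 and 822. The heat shock gene Hspa1b held 415, 402 and 536 normalized counts in the luminal libraries and 6.92, 161, 178 and 22.6 in the basal libraries, its basal libraries parting in the same way (3.22 ± 0.95, adjusted p = 0.0242). The Hspa1b call was lost without luminal mouse 821, luminal mouse 822, luminal mouse 825 or basal mouse 825 (adjusted p from 0.0645 to 0.0851), by DESeq2 on the reads (0.0778), with array quality weights (0.0741) and with the side as a term (1.51, adjusted p = 0.325). Egr1 and Klf4 were basal (Egr1 -0.88 ± 0.27, adjusted p = 0.0283; Klf4 -1.22 ± 0.39, adjusted p = 0.0330) and Klf6 luminal (0.83 ± 0.25, adjusted p = 0.0292), each losing its call without single libraries. For Egr1 it was lost without luminal mouse 821, luminal mouse 822, basal mouse 820 or basal mouse 825 (adjusted p from 0.0507 to 0.106), with mouse as a block (adjusted p = 0.0675) and with the side as a term (-0.98, adjusted p = 0.0763). For Klf4 it was lost without luminal mouse 821, luminal mouse 822, basal mouse 820 or basal mouse 825 (adjusted p from 0.0674 to 0.127), and with the side as a term (0.42, adjusted p = 0.655). For Klf6 it was lost without luminal mouse 821, luminal mouse 825, basal mouse 821, basal mouse 822 or basal mouse 825 (adjusted p from 0.0509 to 0.103), and after quantile normalization (adjusted p = 0.0718). In K8imTmG mice Klf4 was luminal (1.94 ± 0.35, adjusted p = 0.00298).

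Of the markers of other cell types that passed, all but Notch3 were basal, though some leukocyte and fibroblast markers passed in neither direction. All 7 endothelial markers tested were higher in basal cells, their summed level being 41.0 to 71.1 normalized counts in luminal and 349 to 1392 in basal libraries, although CD31 cells had been excluded at the sort. Kdr, the endothelial receptor for Vegf, held 6.31, 9.61 and 6.61 normalized counts in the luminal libraries and 439.7, 234, 435 and 101 in the basal libraries (-4.96 ± 0.48, adjusted p = 4.35e-05). The basal libraries spread more than 4-fold in it, mouse 825 being lowest. Both adipocyte markers tested and 2 of 3 pericyte markers were basal as well, Fabp4 at 50.5, 49.99 and 39.6 in luminal and 496, 589, 955 and 142 in basal cells and Rgs5 at 7.57, 13.5 and 13.2 in luminal and 94.6, 107, 228 and 41.9 in basal cells (the third pericyte marker was Notch3, which luminal cells express). The adipocyte markers tested were only Fabp4 and Lpl (Adipoq, Plin1, Cidec and Pparg were not analysed here). Fabp4 and Rgs5, like Kdr, were lowest in basal mouse 825, and which cells these reads came from was not tested. Of 5 leukocyte markers tested (Ptprc, which encodes CD45, was not analysed here), 2 were basal (Cd74 and H2-Ab1), with sums of 25.1 to 55.8 in luminal and 80.0 to 164 in basal libraries. Fibroblast markers were basal in 4 of 8, among them Col1a1 at 35.3, 32.7 and 14.5 in luminal and 224, 70.7, 116 and 116 in basal cells (-2.19 ± 0.42, adjusted p = 0.00276; with the side as a term -1.36, adjusted p = 0.224). Their sums overlapped, at 769 to 1349 and 728 to 1098. No marker tested in these lists was at 0 in every library of a group. The part of these cells in the basal values of matrix genes such as Col4a1, which endothelium also expresses, was not tested.

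The same comparison was made in virgin K8imTmG mice, where both genotype and Clec2d side differ. There 3906 of 10796 genes tested (36.2%) differed, 1861 (17.2%) luminal and 2045 (18.9%) basal. Of 10634 genes tested in both genotypes, 1747 passed in the same direction in both, 760 luminal and 987 basal, which is 44.5% of the calls in K8iΔRank and 44.7% of those in K8imTmG. A further 395 passed in opposite directions, 223 of them luminal in K8iΔRank. Across genes the log2 differences of both genotypes had Pearson's r = 0.617, as a description, since genes are not independent. The contractile list was basal in 20 of 20 in both, at medians of -4.91 and -4.91, and the luminal identity list luminal in 17 of 18 in both, at 3.08 and 3.07.

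**Figure D4:**
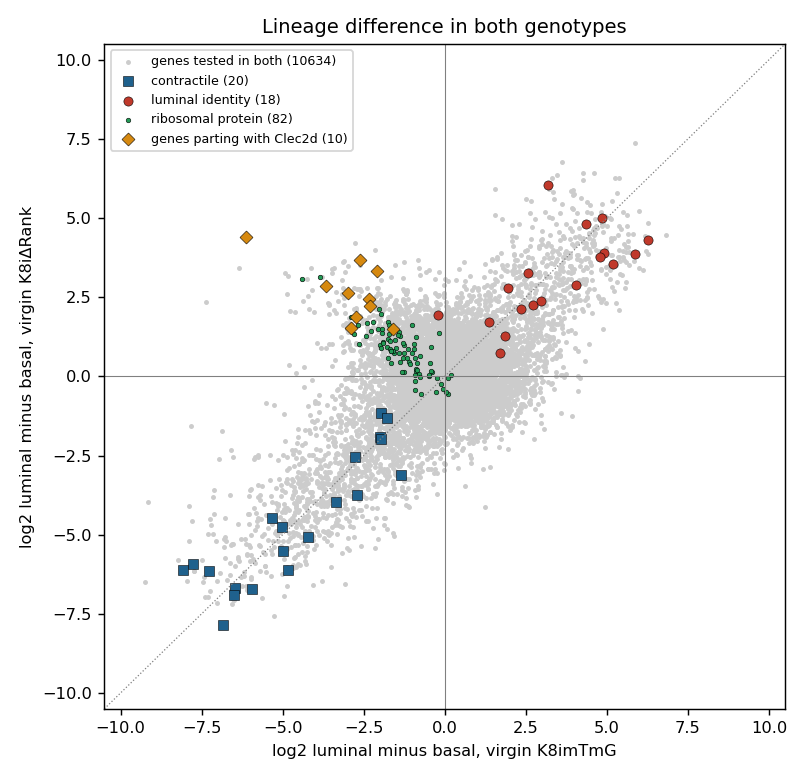
Log2 difference of luminal minus basal for each of 10634 genes tested in both genotypes, in virgin K8imTmG (horizontal) and virgin K8iΔRank (vertical), with the dotted line for equal differences and 4 lists in colour. Contractile and luminal identity genes lie along the line, whereas those parting with Clec2d lie in the upper left, luminal in K8iΔRank and basal in K8imTmG. Ribosomal protein genes lean the same way, with 34 of 82 called luminal in K8iΔRank and 64 of 82 called basal in K8imTmG.

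The difference of the lineage differences was tested directly over the 13 virgin libraries, and 2397 of 10886 genes (22.0%) passed, 1117 (10.3%) with a more luminal difference in K8iΔRank and 1280 (11.8%) with a more basal one. Since this contrast has the signs of the Clec2d side, genotype and side cannot be told apart in it. Rnf10, a ubiquitin ligase, held 218, 256 and 233 normalized counts in the luminal libraries and 77.3, 86.8, 91.4 and 75.2 in the basal libraries of K8iΔRank mice, against 66.6, 71.8 and 86.8 in luminal and 209.7, 215 and 255 in basal K8imTmG libraries. The order of the lineages was thus opposite in the genotypes, without overlap (3.08 ± 0.27, adjusted p = 2.34e-05). Lamtor2, a lysosomal scaffold, and Tnfrsf12a, the receptor for Tweak, did the same (5.43 ± 0.34, adjusted p = 9.40e-07, and 5.62 ± 0.37, adjusted p = 1.03e-06). In the other direction stood Map3k3, a kinase upstream of Erk5, with 26.5, 17.3 and 15.9 in luminal and 111, 54.6, 64.3 and 97.7 in basal cells of K8iΔRank mice. Its control libraries held 71.1, 101 and 121 in luminal and 17.2, 12.4 and 10.9 in basal cells (-4.72 ± 0.47, adjusted p = 5.40e-05). These control basal values rest on 12, 3 and 2 reads, so the size of the difference is uncertain. With the side as a term none of these 4 genes passed as a lineage difference (adjusted p from 0.172 to 0.813). All 4 were named by this contrast, and Rnf10, Lamtor2 and Tnfrsf12a also belong to the list that parts with Clec2d. Their opposite order and their loss with the side as a term follow from that choice and are no independent evidence.

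Genes that part with Clec2d were luminal in 10 of 10 in K8iΔRank (median 2.54) and basal in 10 of 10 in K8imTmG (median -2.68), but that list had been picked on these libraries and is not independent evidence. Of 82 ribosomal protein genes, 34 were luminal and none basal in K8iΔRank (median 0.83), and 64 were basal and none luminal in K8imTmG (median -1.30). With the side as a term in a fit of all 30 libraries no ribosomal protein gene was luminal and 5 were basal. In that fit 2129 genes differed between the lineages of K8iΔRank mice, 862 luminal and 1267 basal, and 1844 of the 3928 calls passed in the same direction.

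**Figure D5:**
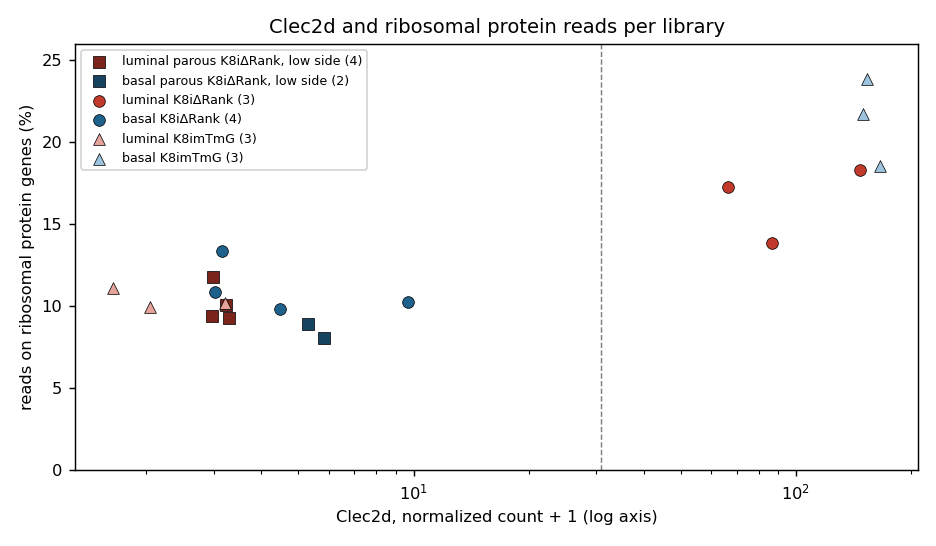
Share of reads on ribosomal protein genes (%) against Clec2d (normalized count plus 1, log axis) in each virgin library and in the parous K8iΔRank libraries of the low side, with the dashed line at 30 normalized counts. Luminal K8iΔRank and basal K8imTmG libraries lie right of the line, and all other libraries shown lie left of it, with at most 13.4% of reads on ribosomal protein genes.

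In the parous K8iΔRank libraries of the low side, 4 luminal and 2 basal, both lineages share the side, and 3284 genes (30.1%) differed between them. Of the 3928 genes that differed in virgin K8iΔRank mice, 3570 had the same sign there. Of the 1747 genes called alike in both virgin genotypes, 1740 had that sign, and of the 395 called in opposite directions, 230 had the sign of K8iΔRank and 165 that of K8imTmG. The contractile median was -4.89 and that of luminal identity 2.86, while the Clec2d list stood at -0.14 and ribosomal protein genes at 0.20. Kappa-casein kept a luminal difference of 4.48 and Foxa1 of 4.61, against 6.35 and 6.76 in virgin K8iΔRank and 3.45 and 3.62 in virgin K8imTmG mice. Mfge8 was luminal in these parous libraries (1.27, adjusted p = 0.00175), as in the K8imTmG controls and unlike virgin K8iΔRank mice. These are other mice at another stage, so the values stand side by side without a test between them.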

How the data were processed

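Libraries were made from RNA of sorted cells by 3′ tag sequencing with molecular identifiers (QuantSeq forward kit, which keeps the strand). The authors trimmed reads, aligned them with Bowtie2 to GRCm39, removed duplicates with UMI-tools and counted genes of Gencode vM26 (FastQC 0.11.9, SAMtools and bedtools are also named). The deposited signal values are these counts divided by the size factors of DESeq2. Within every library the steps of the low values gave whole reads for 100% of the values (tolerance 0.01 reads).

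Groups were taken from the labels. Genes that exceeded 10 normalized counts in 25% or more of these libraries were tested by limma 3.58.1 (trend, R 4.3.3) on log2 of normalized count plus 1, without a block, and p-values were adjusted by Benjamini-Hochberg over all genes tested, with a threshold of 0.05. The scripts were tested on simulated data with known changes. Luminal and basal libraries of mice 821, 822 and 825 come from the same animals. Their deviations from the group means correlated at 0.343, -0.241 and -0.0847, and those of different mice at -0.333 to 0.286. The same-mouse values thus overlapped those of different mice. Because animals are shared, the fit with mouse as a block was an alternative, and its value is given beside a result where it changed the call. Further alternatives were pseudocounts of 0.5 and 4, no filter, a mean of at least 50 normalized counts, quantile normalization, array weights, edgeR 4.0.16 and DESeq2 1.42.0 on the recovered reads, all 30 libraries in one fit, the Clec2d side as a term, and leaving out each library.

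Genes named were the 12 furthest in each direction among those that passed, did not overlap and had a mean of at least 50 normalized counts in the higher lineage; members of the gene lists, by counts, with values for those described; the 6 with the lowest adjusted p in each direction of the genotype contrast; and the 9 that the study names for its transcriptome (Rank, Rankl, Rspo1, Csn2, Csn3, Lalba, Irx1, Btn1a1 and Mki67). The members shown in full were picked from the lists with their values known, and the CArG search was added after seeing the values. The members and lists were chosen with earlier results of these data known. Genes of a list without a value here were not analysed. Symbols were placed on GRCm39 with Gencode vM39, where 10898 genes matched by name. Some genes that this rule names are not reported here.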

Additional observations from a re-analysis of the deposited data

Results flagged for a closer look

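Among 147 genes looked at, 4 had 1 basal library far from the other 3. Chance alone would mark about 1 in 20 groups, a share that 4 of 147 does not exceed. Lactoferrin (Ltf) stood at 34.6 normalized counts in basal mouse 820 and between 9.67 and 13.5 in the others. Notch3 stood at 35.8 in the same mouse and between 13.6 and 16.3 in the others. Pcdh7 reached 142 in basal mouse 825, against 99.2 to 106 elsewhere, and Gas5, a host gene of small nucleolar RNAs, reached 1318 there, against 1047 to 1086.

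The lineage difference differed between virgin K8iΔRank and virgin K8imTmG mice in 2397 genes by the limma test of the difference itself, a contrast in which genotype and Clec2d side cannot be told apart. Of the 147 genes described, 25 had a more luminal difference in K8iΔRank and 22 a more basal one. Over all genes tested the share that passed was 22.0%. The genes described were picked with values known, so their count is no result. Among the 25 are Clec2d, which defines the side, and Tnfrsf12a, Lamtor2, Sumo2 and Rnf10, of the list picked with it on these libraries. Their differences follow from that choice and are no independent evidence. Sertad3, Gas5, Bnip2, Map3k3, Ehd1, Wasf2 and Mfge8, like Clec2d, Tnfrsf12a, Lamtor2 and Rnf10, were named for a low adjusted p in this contrast. That these genes passed was fixed by that rule. On the log2 scale the difference between the genotypes was 10.54 for Clec2d, 5.62 for Tnfrsf12a, 5.43 for Lamtor2, 5.18 for Ccn2, 4.94 for Sertad3, 4.41 for Sumo2 and 4.36 for Dnajc12. It was 3.63 for Gas5, 3.56 for Lrp5, 3.14 for Foxa1, 3.08 for Rnf10, 2.89 for Csn3, 2.87 for Cldn7, 2.72 for Cd14, 2.47 for Egfr and 2.43 for Id4. Smaller positive differences were 2.27 for Cdkn1b, 2.21 for Wfdc18, 2.13 for Spint2, 1.91 for Irx1, 1.85 for Acta2, 1.48 for Krt5, 1.45 for Fzd7, 1.39 for Nfkbia and 1.17 for Aldh1a3. In the negative direction it was -4.72 for Map3k3, -3.26 for Bnip2, -3.16 for Klf4, -2.88 for Ehd1, -2.80 for Acaca, -2.77 for Mcm3 and -2.68 for Mef2c. Next came -2.52 for Ccnd2, -2.46 for Mfge8, -2.43 for Fasn, -2.41 for Wasf2, -2.26 for Tcf7l1, -2.24 for Lamb2 and -2.20 for Rela. The smallest negative differences were -2.03 for Itgb4, -1.997 for Bcl11b, -1.85 for Nfkb2, -1.80 for Wnt5b, -1.71 for Erbb2, -1.39 for Lgr6, -1.20 for Klf6 and -0.87 for Itga6. Krt5 (-6.47 in K8iΔRank and -7.96 in K8imTmG) and Acta2 (-5.92 and -7.76) were basal in both genotypes and are among these genes.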

How the results depend on the processing

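The count of 3928 genes stayed within 1.5 times under pseudocounts of 0.5 (3873) and 4 (4031), no filter (3970), quantile normalization (3988), array weights (4530), edgeR (3859), DESeq2 (3915), all 30 libraries in one fit (4310), mouse as a block in the mice with both lineages (3372), mouse as a random block (3888) and leaving out each library in turn (3014 to 3862). It fell to 2145 of 5189 genes with a mean of at least 50 normalized counts, where fewer genes are tested, and to 2129 with the Clec2d side as a term (40.5% luminal against 46.8%), whose cause was not tested. In K8imTmG mice the mean of at least 50 gave 2334 genes, and the other settings 2657 to 5299. The genotype contrast gave 1623 to 2611. Quantile normalization moved the median of all genes in K8imTmG to 0.11.

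Single genes that reversed did so mostly with the side as a term: Nfkb2 (0.21), Rela (0.039), Nfkbie (0.38), Mcm3 (0.31), Mcm7 (0.49), Mki67 (2.14), Fasn (0.53), Klf4 (0.42), Gas5 (-0.61), Wasf2 (0.41) and Sumo2 (-0.78). Lama5 reversed with quantile normalization (0.019). Leaving out libraries spread Irx1 from -0.28 to 0.042, Lama5 from -0.15 to 0.12 and Mki67 from -2.08 to 0.54. In the fit of all 30 libraries without the side, the calls of Nfkbie, Notch4, Wnt5b, Mcm3, Mcm7, Fasn, Klf4 and Wasf2 were lost (adjusted p from 0.0612 to 0.218) and those of Erbb2, Itga3 and Notch1 gained. Array weights added those of Gata3, Tbx3, Erbb2, Notch1 and Jag1. In these cases the cause was not tested. The block changed no call of a described gene other than those given with it. Depth limits the genes near the floor of 3 reads, and with 3 against 4 libraries small differences can be missed.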
